A study of Mus musculus with 2 samples.

Results

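SR proteins and heterogeneous nuclear ribonucleoproteins (hnRNPs) are the 2 large families of RNA-binding proteins that steer the choice of splice sites. Their genes were followed in mouse mammary basal cells carrying a short hairpin RNA against Cdk14 (Cdk14-sh) or a scrambled hairpin (Scramble control), in 1 RNA sequencing library each. Members were the genes of the deposited table whose symbol starts with Srsf or Hnrnp, together with Tra2a, Tra2b, Ptbp1, Ptbp3, U2af1, U2af2, Sf3b1, Mbnl1, Mbnl2, Rbfox2 and Qk. The rule found 42 genes of 15239, and all 42 averaged at least 1 FPKM (fragments per kilobase of exon, scaled to library size) over both libraries. Both libraries are labelled as normal mammary gland, and no strain, age, culture or number of animals is given. The labels disagree on the material, since the design text names the human line MDA-MB-231 and the extraction protocol names retinas, whereas the table holds mouse gene identifiers. With 1 library per group there is no replicate check, no test was possible and no p-value is given.

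SR proteins bind exonic enhancers through an RNA recognition motif and recruit the spliceosome through a domain rich in arginine and serine, which SRPK and CLK kinases phosphorylate. Many hnRNPs bind silencers or coat the transcript and oppose that choice, so the ratio of members of both families can set which exons are kept. Several of these genes also hold exons that bring an early stop codon into their own messenger RNA, which is then removed by nonsense-mediated decay.

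The libraries corresponded to 10177185 reads for Cdk14-sh and 10186924 for Scramble control. These totals were recovered from the FPKM values and annotated exonic lengths, with the smallest step taken as 0.5 reads. Cdk14, the targeted cyclin-dependent kinase, stood at 0.713 FPKM in Cdk14-sh against 2.06 in Scramble control. All 10 basal and myoepithelial markers looked for had a value, with summed levels of 3313 FPKM in Cdk14-sh and 4496 in Scramble control. They did not move as a block. Cnn1 (107 against 359 FPKM), Acta2 (696 against 1095) and Myh11 (46.6 against 104) were lower in Cdk14-sh. So were Krt17 (867 against 1349), Krt14 (994 against 1199) and Itga6 (112 against 119). By contrast, Trp63 (23.9 against 8.42), Krt5 (242 against 129), Krt15 (192 against 108) and Oxtr were higher. Markers of other cell types differed between the libraries: 5 of 6 endothelial markers summed to 7.61 against 131 FPKM, 5 of 6 immune markers to 354 against 79.6, 9 of 12 luminal markers to 601 against 1146 and 3 of 6 fibroblast markers to 57.8 against 112, with Cdk14-sh first. Krt8, Krt18 and Gata3 carried the lower luminal sum, while Krt19 (42.9 FPKM in Cdk14-sh, 20.5 in Scramble control) was higher. Kit (0.750 and 0.330), Esr1 (1.55 and 0.0862), Pgr (0.391 and 0.0115) and Prlr (1.77 and 0.154) were also higher, in the same order. These low-level genes averaged below 1 FPKM, so their differences are uncertain. Dcn alone carried the lower fibroblast sum, while Col1a1 (7.79 FPKM in Cdk14-sh, 3.92 in Scramble control) and Col1a2 (8.81 and 3.25 in the same order) were higher. Of the immune markers Ptprc alone was lower in Cdk14-sh. The part of these differences in the values below was not tested. None of the 4 neuron markers could be analysed, and the 1 of 6 retina markers with a value, Gnat1, was at 0.130 FPKM in Cdk14-sh and 1.88 in Scramble control. In such bulk samples, fewer cells of a type and less RNA per cell cannot be told apart.

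Most splicing factor genes differed by less than 1.5-fold between the libraries. The log2 ratio used here is that of Cdk14-sh over Scramble control after adding 1 FPKM to each. Of the 42 genes, 2 exceeded 2-fold upwards in Cdk14-sh (Hnrnpa3 and Hnrnpul2), as did 14.3% of all 12819 measured genes, and 1 exceeded 2-fold downwards (Srsf12), as did 13.5% of all. At the milder limit of 1.5-fold, 7 were higher (background 25.3%) and 5 lower (background 24.5%), so that 30 of 42 (71.4%) lay between these limits, against 50.2% of all measured genes. The median log2 ratio was 0.08, against 0.02 over all measured genes, and the SD was 0.67 against 1.02. Other splicing genes, described below, also lay mostly between the 1.5-fold limits. The shares were 77.8% for SR protein modifiers and import, 77.4% for SR-related coactivators and 70.8% for exon junction and decay genes. They were 63.6% for the core spliceosome and 58.8% for other regulators. The members' median level in Cdk14-sh was 38.7 FPKM, against 7.63 over all measured genes. The part of level in the spread was not tested. Srsf12 and Hnrnpul2 are among the members of lowest level. Among genes of at least 5 FPKM, 39 members were left, of which 1 passed 2-fold upwards (background 11.7%) and 0 downwards (background 11.3%), with an SD of 0.50 against 0.97 for all 8058 such genes.

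Small differences were nonetheless beyond counting error for most members, as differences were for most measured genes. The 95% interval of the FPKM ratio covers counting error only and narrows as reads increase. It lay above 1 for 16 of 42 (38.1%, background 36.0%) and below 1 for 17 (40.5%, background 33.1%), and held 1 for 9. Both shares are close to those of all genes. The summed level of all members was 2527 FPKM in Cdk14-sh against 2474 in Scramble control, or 0.665% and 0.682% of the table's total.

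**Figure D1:**
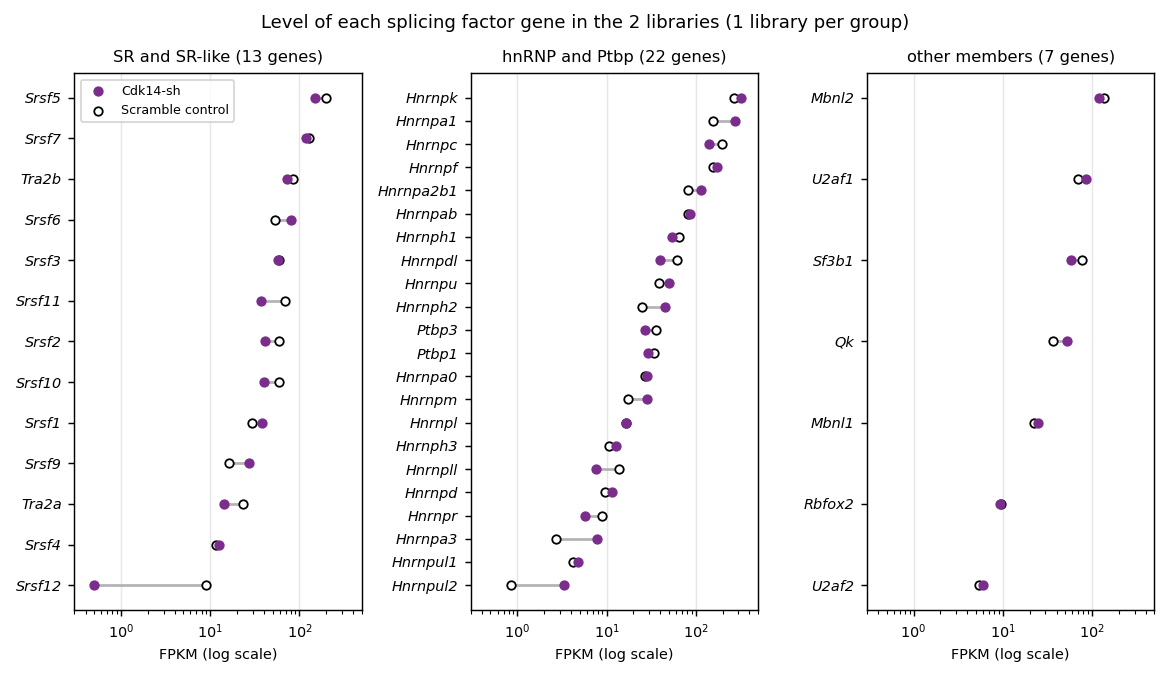
Level of each of the 42 genes in FPKM on a log axis, with Cdk14-sh as filled and Scramble control as open circles, each 1 library, ordered by mean level within SR and SR-like genes, hnRNP and Ptbp genes, and the other members. Most pairs of circles lie close together on this axis, and Srsf12, at 0.499 FPKM in Cdk14-sh and 8.92 in Scramble control, has the widest gap.

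Among the 13 SR and SR-like genes (11 Srsf genes, Tra2a and Tra2b), more were lower than higher in Cdk14-sh. Their median log2 ratio was -0.21, 4 of 13 were above 0 (51.4% of all measured genes were), and the interval of the ratio was below 1 for 8 (61.5%, background 33.1%) and above 1 for 3 (23.1%, background 36.0%). Summed over the group, the level was 690.4 FPKM in Cdk14-sh and 803 in Scramble control.

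The lowest ratio of all members belonged to Srsf12, an SR-like protein known to counter the activity of SR proteins. This gene (ENSMUSG00000054679) lies on the plus strand of chromosome 4 from 33208991 to 33233340 (GRCm38). Srsf12 was at 0.499 FPKM in Cdk14-sh, from 16 reads, and at 8.92 FPKM in Scramble control, from 286 reads. It was thus 17.9-fold lower (8.82 to 42.2) without a pseudocount. With the pseudocount of 1 FPKM its log2 ratio was -2.73, and only 0.710% of measured genes had a lower log2 ratio. For Srsf12 this value depends on the pseudocount, at -3.91 with 0.1 FPKM and -1.34 with 5 FPKM. Its close relative Srsf10, a splicing repressor when it loses its phosphates, was at 40.0 FPKM in Cdk14-sh against 59.6 in Scramble control, 1.49-fold lower (1.39 to 1.59).

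Next to Srsf12 in the group stood Srsf11, an SR-related protein with a role in including very short exons. Srsf11 was at 36.7 FPKM in Cdk14-sh against 68.3 in Scramble control, 1.86-fold lower (1.75 to 1.98). Tra2a, which with Tra2b binds purine-rich enhancers, was at 14.3 FPKM in Cdk14-sh against 23.6 in Scramble control, 1.65-fold lower (1.47 to 1.84). Its paralog Tra2b, the more abundant in both libraries, was at 73.3 FPKM against 85.1, 1.16-fold lower (1.11 to 1.22). Srsf2, an SR protein that stays in the nucleus and is a familiar marker of nuclear speckles, was at 41.1 FPKM in Cdk14-sh against 59.6 in Scramble control, 1.45-fold lower (1.31 to 1.61). Mettl23 and Mfsd11 on the other strand cover 25.3% of its exonic bases, and no source used here states a strand setting.

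On the other side stood 3 SR genes whose counting interval was above 1. Srsf9 was at 27.4 FPKM in Cdk14-sh against 16.3 in Scramble control, 1.68-fold higher (1.36 to 2.10), from 461 and 274 reads. Srsf6, which acts in epidermal wound healing, was at 81.1 FPKM in Cdk14-sh against 53.1 in Scramble control, 1.53-fold higher (1.42 to 1.64). Srsf1, the prototype of the family and an oncogene in mammary cells, was at 37.6 FPKM in Cdk14-sh against 29.6 in Scramble control, 1.27-fold higher (1.16 to 1.39). These 3 genes differ in level by several fold, and none is the most abundant of the family.

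The most abundant SR gene was Srsf5, at 149 FPKM in Cdk14-sh against 201 in Scramble control, 1.34-fold lower (1.28 to 1.41). Srsf7, which with Srsf3 also links splicing to export of messenger RNA, was at 119 FPKM in Cdk14-sh and 127 in Scramble control. Srsf3 itself was at 57.8 FPKM in Cdk14-sh and 59.5 in Scramble control, a ratio of 0.971 (0.917 to 1.03). Srsf4 was at 12.7 FPKM in Cdk14-sh and 11.5 in Scramble control, a ratio whose interval held 1 (0.909 to 1.34). Gm12992 on the other strand covers 43.0% of the exonic bases of Srsf4.

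Srsf5 and Srsf6 are paralogs of 1 subfamily and lay on opposite sides, and their promoter windows are shown with that of Srsf12, the extreme of the group. The windows run from 250 bases before to 50 after the annotated start (RefSeq, GRCm38.p6), at chr2:162931258-162931557 on the plus strand for Srsf6, chr12:80945249-80945548 on the plus strand for Srsf5 and chr4:33209022-33209321 on the plus strand for Srsf12. Capitals mark the GC box GGGCGG and the CCAAT box CCAAT on either strand.
Srsf6: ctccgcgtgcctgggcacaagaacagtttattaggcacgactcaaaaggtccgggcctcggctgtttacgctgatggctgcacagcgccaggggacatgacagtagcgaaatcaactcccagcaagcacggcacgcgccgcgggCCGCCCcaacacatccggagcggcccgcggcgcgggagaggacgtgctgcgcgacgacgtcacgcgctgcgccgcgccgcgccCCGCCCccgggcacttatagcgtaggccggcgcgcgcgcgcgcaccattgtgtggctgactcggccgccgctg
Srsf5: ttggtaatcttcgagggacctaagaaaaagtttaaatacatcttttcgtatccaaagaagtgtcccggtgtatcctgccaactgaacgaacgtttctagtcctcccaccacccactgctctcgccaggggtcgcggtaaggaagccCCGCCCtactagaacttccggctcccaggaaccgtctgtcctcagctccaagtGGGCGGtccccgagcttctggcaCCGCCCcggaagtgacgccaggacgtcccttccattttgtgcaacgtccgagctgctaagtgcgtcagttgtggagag
Srsf12: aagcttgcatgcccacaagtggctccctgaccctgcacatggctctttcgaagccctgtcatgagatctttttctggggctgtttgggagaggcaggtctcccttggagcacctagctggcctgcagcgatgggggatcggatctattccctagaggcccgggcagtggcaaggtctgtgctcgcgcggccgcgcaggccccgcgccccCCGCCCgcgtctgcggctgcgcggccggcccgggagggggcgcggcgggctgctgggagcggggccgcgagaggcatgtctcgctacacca
The windows hold 2 GC boxes for Srsf6, 3 for Srsf5 and 1 for Srsf12, and none of these windows holds CCAAT. Their GC content was 70.0%, 56.0% and 69.0% in the same order. The window of Srsf12 follows the RefSeq start and lies wholly inside the gene as placed above, which begins at 33208991 in GENCODE M21. It is therefore not upstream of that start, unlike most of the windows of Srsf5 and Srsf6. No factor's binding was measured, and the letters describe the windows only.

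The 22 hnRNP and Ptbp genes lay on both sides. Their median log2 ratio was 0.13, and 15 of 22 (68.2%) were above 0, against 51.4% of all measured genes. Hnrnpl is among the 15 at 0.01, and lay below 0 under each of the other scalings tried. The interval of the ratio was above 1 for 10 (45.5%, background 36.0%) and below 1 for 7 (31.8%, background 33.1%). The 20 Hnrnp genes alone had a median of 0.19. Their level summed over all 22 was 1482 FPKM in Cdk14-sh and 1314 in Scramble control. The difference between the SR and hnRNP groups rests on 2 libraries and was not tested.

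The hnRNP A subfamily, whose proteins bind exonic silencers and oppose Srsf1, had higher levels of 3 genes in Cdk14-sh. Hnrnpa3 (ENSMUSG00000059005, chromosome 2 from 75659261 to 75669407, plus strand) was at 7.75 FPKM in Cdk14-sh against 2.75 in Scramble control. It was 2.82-fold higher (2.18 to 3.75), from 426 and 151 reads, and had the highest log2 ratio of all members with the pseudocount (1.22), above 89.7% of measured genes. Hnrnpa1 (ENSMUSG00000046434, chromosome 15 from 103240432 to 103246692, plus strand) was at 275 FPKM in Cdk14-sh against 155 in Scramble control, 1.77-fold higher (1.69 to 1.86). Hnrnpa2b1, whose protein also sorts RNA into vesicles, was at 114 FPKM in Cdk14-sh against 81.8 in Scramble control, 1.40-fold higher (1.33 to 1.47). Together these 3 genes stood at 398 FPKM in Cdk14-sh and 240 in Scramble control, a ratio of 1.66. The intronless Hnrnpa0 was apart from them, at 28.3 FPKM in Cdk14-sh and 27.0 in Scramble control, with an interval that held 1 (0.905 to 1.21). Genes of this subfamily have processed pseudogenes that can share their reads, and no source used here states how such reads were treated.

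The promoter windows of these 3 higher A-type genes are shown side by side, at chr2:75659009-75659308 on the plus strand for Hnrnpa3, chr15:103240147-103240446 on the plus strand for Hnrnpa1 and chr6:51469845-51470144 on the minus strand for Hnrnpa2b1, where the more upstream of 2 listed starts was taken. Capitals mark GGGCGG and CCAAT on either strand, as above.
Hnrnpa3: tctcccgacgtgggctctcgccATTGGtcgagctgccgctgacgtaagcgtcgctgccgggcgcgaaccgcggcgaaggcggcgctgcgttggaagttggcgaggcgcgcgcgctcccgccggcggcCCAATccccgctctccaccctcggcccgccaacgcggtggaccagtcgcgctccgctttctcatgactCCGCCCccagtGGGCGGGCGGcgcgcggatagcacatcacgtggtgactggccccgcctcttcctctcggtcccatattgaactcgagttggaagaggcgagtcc
Hnrnpa1: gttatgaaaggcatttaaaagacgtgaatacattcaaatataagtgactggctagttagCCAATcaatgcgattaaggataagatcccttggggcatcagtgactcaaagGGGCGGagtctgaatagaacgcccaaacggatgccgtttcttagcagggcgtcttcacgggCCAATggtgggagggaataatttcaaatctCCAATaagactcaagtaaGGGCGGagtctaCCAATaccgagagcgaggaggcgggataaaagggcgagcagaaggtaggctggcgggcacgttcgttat
Hnrnpa2b1: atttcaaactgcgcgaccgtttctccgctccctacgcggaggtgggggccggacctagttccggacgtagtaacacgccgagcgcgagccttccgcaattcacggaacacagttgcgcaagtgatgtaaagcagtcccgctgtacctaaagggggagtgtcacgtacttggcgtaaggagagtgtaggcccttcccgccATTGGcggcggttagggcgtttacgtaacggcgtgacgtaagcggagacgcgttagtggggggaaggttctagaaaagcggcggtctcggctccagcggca
CCAAT occurs 2 times in the window of Hnrnpa3, 4 times in that of Hnrnpa1 and 1 time in that of Hnrnpa2b1. The GC box occurs 3 times, 2 times and 0 times. The windows differ in GC content, which was 70.3% for Hnrnpa3, 48.3% for Hnrnpa1 and 60.0% for Hnrnpa2b1.

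The other higher hnRNP genes were of varied kinds. Hnrnpul2, a relative of the scaffold protein gene Hnrnpu, was at 3.29 FPKM in Cdk14-sh against 0.857 in Scramble control, 3.84-fold higher (2.57 to 5.90). By mean level this was the least abundant member, with about 238 and 62 reads, and 5.06% of its exonic bases are shared with AC129217.1 on its own strand. Hnrnph2, an X-linked member that binds runs of guanine, was at 45.8 FPKM in Cdk14-sh against 25.3 in Scramble control, 1.81-fold higher (1.63 to 2.01). Hnrnpm, a regulator of epithelial and mesenchymal splice forms, was at 28.2 FPKM in Cdk14-sh against 17.2 in Scramble control, 1.64-fold higher (1.49 to 1.80), with 14.7% of its exonic bases shared with March2 on its strand. Hnrnpu, which also organises chromatin, was at 50.5 FPKM in Cdk14-sh against 39.2 in Scramble control, 1.29-fold higher (1.22 to 1.36). The most abundant member of all, Hnrnpk, which binds runs of cytosine, was at 318 FPKM in Cdk14-sh against 270 in Scramble control (269.7), 1.18-fold higher (1.15 to 1.21). It ranked 153 of all genes by level in Cdk14-sh and 174 in Scramble control.

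Lower hnRNP genes included Hnrnpll, known in T cells for the switch of splice forms of the leukocyte receptor Ptprc. Hnrnpll was at 7.53 FPKM in Cdk14-sh against 13.7 in Scramble control, 1.81-fold lower (1.61 to 2.04). Ptprc itself was at 0.247 FPKM in Cdk14-sh and 0.482 in Scramble control. Hnrnpr was at 5.71 FPKM in Cdk14-sh against 8.96 in Scramble control, 1.57-fold lower (1.42 to 1.73). With the pseudocount its log2 ratio was -0.57, just short of the 1.5-fold limit, so it is not counted past that limit. Hnrnpdl was at 39.8 FPKM in Cdk14-sh against 61.9 in Scramble control, 1.56-fold lower (1.44 to 1.69). Hnrnpc, which coats uridine-rich introns and competes there with U2af2, was at 142 FPKM in Cdk14-sh against 195 in Scramble control, 1.37-fold lower (1.31 to 1.44).

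The polypyrimidine tract binders were lower in Cdk14-sh, both members by less than 1.5-fold. Ptbp1, the repressor found in most non-neural cells, was at 29.0 FPKM in Cdk14-sh and 33.9 in Scramble control and 1.17-fold lower (1.05 to 1.29). Other-strand genes cover 20.7% of its exons. Ptbp3 was at 26.9 FPKM in Cdk14-sh and 36.1 in Scramble control, 1.34-fold lower (1.24 to 1.46). Ptbp2, the paralog best known from neurons and no member by the rule, was at 14.5 FPKM in Cdk14-sh and 24.9 in Scramble control, 1.72-fold lower (1.56 to 1.89). The interval held 1 for 5 hnRNP genes, namely Hnrnpa0, Hnrnpab, Hnrnpl, Hnrnph3 and Hnrnpul1. Hnrnph3 was at 12.6 FPKM in Cdk14-sh and 10.6 in Scramble control, and Hnrnpul1 at 4.76 and 4.20 in the same order. Hnrnpab was at 86.8 FPKM in Cdk14-sh and 81.5 in Scramble control, and Hnrnpd, with an interval above 1 (1.04 to 1.38), at 11.4 and 9.50. Hnrnpf, a close relative of Hnrnph1, was at 172 FPKM in Cdk14-sh and 158 in Scramble control, 1.09-fold higher (1.03 to 1.15). Other-strand genes cover 29.1% of the exonic bases of Hnrnpab and 26.5% of those of Hnrnpf.

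The 7 remaining members recognise the end of the intron or act as tissue-dependent regulators, and none passed the 1.5-fold limit. U2af1, which reads the last bases of the intron, was at 86.1 FPKM in Cdk14-sh against 68.7 in Scramble control, 1.25-fold higher (1.15 to 1.37). Its partner U2af2, which binds the pyrimidine tract, was at 5.92 FPKM in Cdk14-sh and 5.35 in Scramble control, with an interval that held 1. Sf3b1, which holds the branch point, was at 57.9 FPKM in Cdk14-sh against 77.8 in Scramble control, 1.34-fold lower (1.29 to 1.41). Qk, a regulator of splicing and circular RNA in mesenchymal and glial cells, was at 52.6 FPKM in Cdk14-sh against 36.8 in Scramble control, 1.43-fold higher (1.36 to 1.5). Rbfox2, which shapes the splicing programme of mesenchymal and muscle cells, was at 9.24 FPKM in Cdk14-sh and 9.51 in Scramble control, a ratio of 0.971 (0.843 to 1.12). The muscleblind genes lay on either side of 1, with intervals that did not hold 1. Mbnl1 was at 24.7 FPKM in Cdk14-sh and 22.2 in Scramble control, a ratio of 1.11 (1.05 to 1.18). Mbnl2 was at 119 FPKM in Cdk14-sh and 137 in Scramble control, a ratio of 0.868 (0.842 to 0.896).

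**Figure D2:**
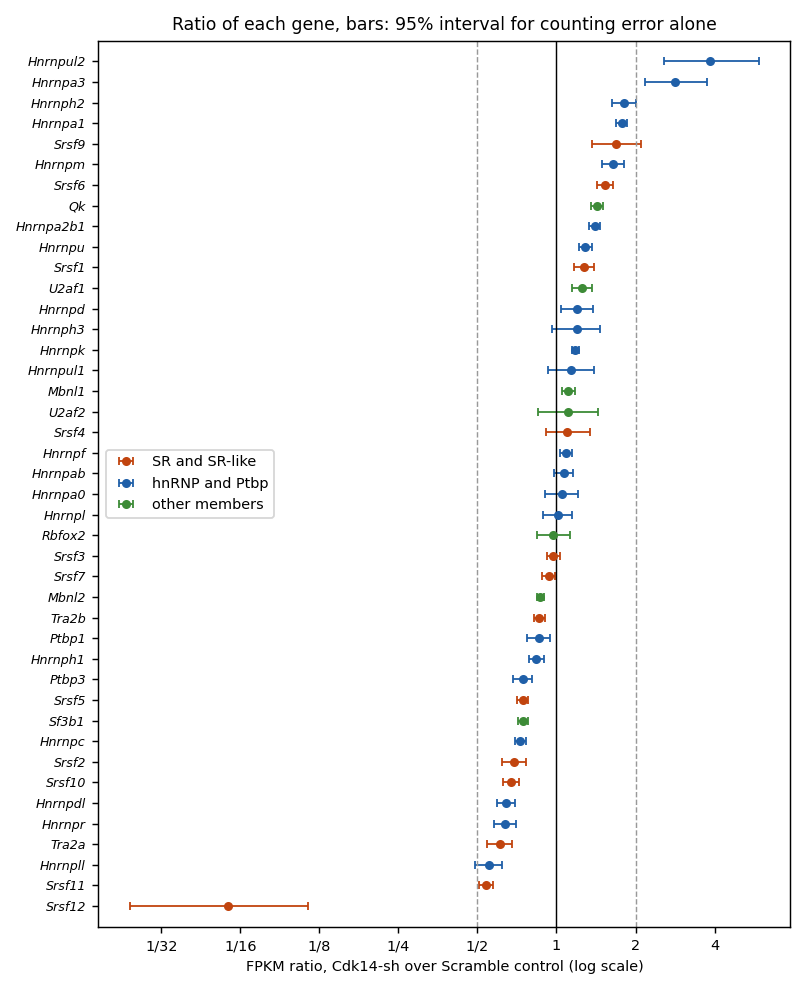
FPKM ratio of each of the 42 genes, Cdk14-sh over Scramble control, on a log axis, with bars for the 95% interval of counting error alone, colours for the 3 groups of genes, a solid line at 1 and dashed lines at 2-fold. Most genes form a continuous run through 1. Hnrnpul2 (3.84) and Hnrnpa3 (2.82) lie above that run, and Srsf12 stands alone below it at a ratio of 0.0560 (0.0237 to 0.113).

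Within paralog sets, the share of each gene in the set's summed FPKM does not depend on the scaling between libraries. The balance of Hnrnph1 and Hnrnph2 differed most in absolute terms among the sets above 10 FPKM. Hnrnph2 made up 45.7% of the pair in Cdk14-sh and 28.0% in Scramble control, with Hnrnph1 at 54.4 and 65.1 FPKM in the same order. Srsf6 made up 33.3% of the sum of Srsf4, Srsf5 and Srsf6 in Cdk14-sh and 20.01% in Scramble control, whereas the sum itself was 243 and 265 FPKM. Hnrnpl, which binds CA-rich repeats, made up 68.7% of its pair with Hnrnpll in Cdk14-sh and 54.5% in Scramble control. Hnrnpl alone was at 16.5 FPKM in Cdk14-sh and 16.3 in Scramble control. Hnrnpab, which with Hnrnpd and Hnrnpdl binds AU-rich elements, made up 62.9% of that set in Cdk14-sh and 53.3% in Scramble control.

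Srsf3 made up 32.8% of its pair with Srsf7 in Cdk14-sh and 31.9% in Scramble control, and U2af1 made up 93.6% of the U2af pair in Cdk14-sh and 92.8% in Scramble control. Ptbp1 was the larger of its pair in Cdk14-sh, with 51.9%, and the smaller in Scramble control, with 48.4%. The widest difference in balance of all 12 sets was that of the Hnrnpul pair, at the lowest summed levels (8.05 FPKM in Cdk14-sh and 5.05 in Scramble control). Hnrnpul2 was 40.9% of that pair in Cdk14-sh and 17.0% in Scramble control.

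**Figure D3:**
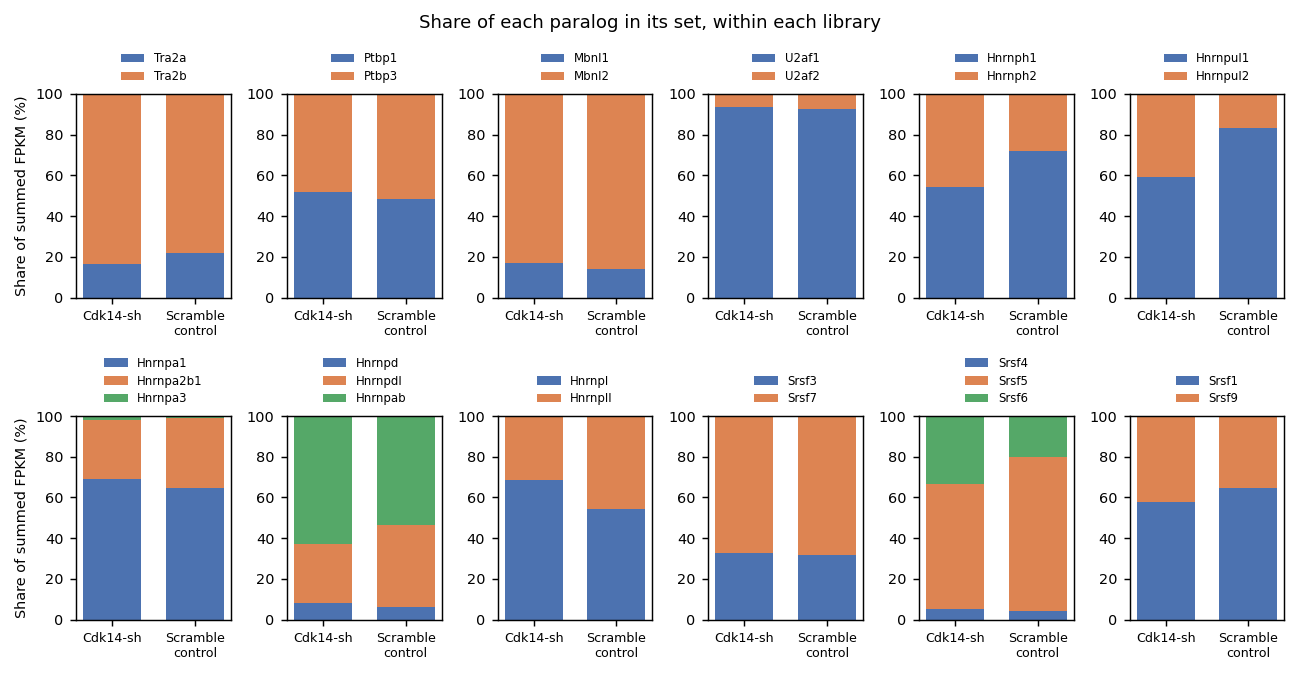
Share in percent of each gene in the summed FPKM of its paralog set, for 12 sets, with the Cdk14-sh library left of the Scramble control library and 1 colour per gene. The balance differs visibly for Hnrnph1 and Hnrnph2, for the Hnrnpul pair and for Srsf5 and Srsf6, and hardly for Srsf3 and Srsf7.

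**Figure D4:**
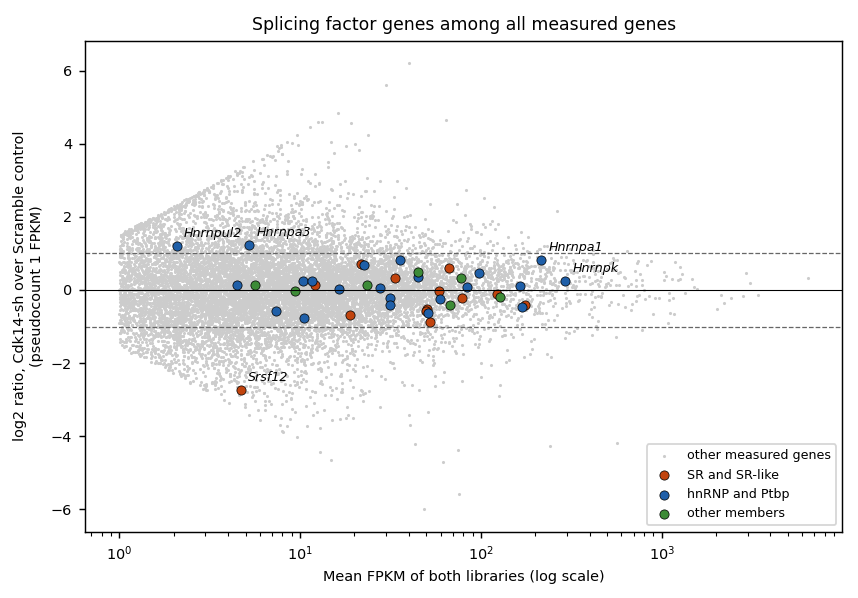
Log2 ratio of Cdk14-sh over Scramble control (pseudocount 1 FPKM) against the mean FPKM of both libraries on a log axis, for all 12819 measured genes in grey and the 42 splicing factor genes in colour, with dashed lines at 2-fold. The members keep to the band between the dashed lines except for Srsf12 below and Hnrnpa3 and Hnrnpul2 above, all of which lie among the members of low level.

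The wider splicing machinery was compared through 5 lists. Of 66 measured genes of the small nuclear ribonucleoproteins and core spliceosome (67 listed), 10 passed 2-fold upwards and 1 downwards, or 15.2% and 1.52% against the background of 14.3% and 13.5%. Their median log2 ratio was 0.30 and 43 of 66 were above 0. Snrpa, a protein of the U1 particle that marks the start of the intron, was at 25.97 FPKM in Cdk14-sh against 4.74 in Scramble control, 5.48-fold higher (4.28 to 7.22). Prpf31, a protein of the particle that joins U4, U6 and U5, was at 8.14 FPKM in Cdk14-sh against 1.34 in Scramble control, 6.09-fold higher (4.28 to 8.87). Lsm6, of the ring that binds the end of U6, was at 10.9 FPKM in Cdk14-sh against 2.31 in Scramble control, 4.71-fold higher (3.44 to 6.58). At the low end, Cwc27 was 2.75-fold lower (2.0 to 3.88), at 3.57 FPKM in Cdk14-sh and 9.84 in Scramble control. It was followed by the helicase Ddx46, at 11.1 FPKM in Cdk14-sh and 21.9 in Scramble control, and by Crnkl1, at 9.48 in Cdk14-sh and 18.0 in Scramble control.

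The genes that modify and import SR proteins differed in both directions. Of 18 measured (19 listed), 0 passed 2-fold upwards on the log2 scale with a pseudocount (background 14.3%), 1 (5.56%) passed it downwards (background 13.5%), and the median was 0.24. The lower gene was Ppp1r8, a nuclear regulator of protein phosphatase, at 3.48 FPKM in Cdk14-sh against 10.1 in Scramble control, 2.89-fold lower (2.09 to 4.03). Clk1, the most familiar of the CLK kinases, was at 70.7 FPKM in Cdk14-sh against 112 in Scramble control, 1.59-fold lower (1.51 to 1.66). Clk2 was at 3.69 FPKM in Cdk14-sh against 1.59 in Scramble control. Its FPKM ratio was 2.32 (1.61 to 3.41), and its log2 ratio with the pseudocount was 0.85. Jmjd6, which hydroxylates splicing factors, was 1.89-fold lower (1.57 to 2.27). The SR kinases Srpk1 (18.3 FPKM in Cdk14-sh, 14.9 in Scramble control) and Srpk2 (14.3 and 11.8 in the same order) were higher in Cdk14-sh by less than 1.5-fold.

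Of 31 measured SR-related coactivators (33 listed), 7 (22.6%) had a log2 ratio above 0, against 51.4% of all measured genes, with a median of -0.25. Past 2-fold, 0 were higher (background 14.3%) and 1 (3.23%) was lower (background 13.5%). The lower gene was Rsrp1, an arginine and serine rich protein gene, at 19.7 FPKM in Cdk14-sh against 65.6 in Scramble control, 3.34-fold lower (2.95 to 3.78). Luc7l3 and Luc7l, relatives of a yeast U1 protein, came next at 5.98 and 12.4 FPKM in Cdk14-sh, against 12.7 and 24.9 in Scramble control. The highest was Prpf38b, at 16.6 FPKM in Cdk14-sh and 10.002 in Scramble control, 1.66-fold higher (1.46 to 1.91). The speckle scaffold genes Son (29.7 FPKM in Cdk14-sh, 39.5 in Scramble control) and Srrm2 (16.9 and 18.6 in the same order) were between these ends.

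Other regulators of alternative splicing had a median of -0.08 over 51 measured genes (62 listed), with 7 (13.7%) past 2-fold upwards and 2 (3.92%) downwards, against the background of 14.3% and 13.5%. The highest was Celf4, a regulator best known from neurons, at 2.12 FPKM in Cdk14-sh against 0.147 in Scramble control, from about 185 and 13 reads. Next came Tia1, a stress granule protein that strengthens weak splice sites, at 3.90 FPKM in Cdk14-sh against 0.935 in Scramble control, 4.17-fold higher (3.24 to 5.45). Raver1 followed at 4.49 FPKM in Cdk14-sh and 1.21 in Scramble control, but 99.7% of its exonic bases are shared with Gm38431 and Mir7082 on its strand. Syncrip, an hnRNP-like protein also known as hnRNP Q, was at 30.6 FPKM in Cdk14-sh against 12.01 in Scramble control, 2.55-fold higher (2.34 to 2.78). The lower ones were Rbm24, a muscle regulator, 3.81-fold lower (2.52 to 5.88) at 1.68 FPKM in Cdk14-sh and 6.41 in Scramble control, and Raver2, a partner of Ptbp1, at 0.790 FPKM in Cdk14-sh and 3.54 in Scramble control. Esrp1, the epithelial regulator, was at 13.1 FPKM in Cdk14-sh against 18.2 in Scramble control, 1.39-fold lower (1.22 to 1.58). For the exon junction complex, export and nonsense-mediated decay, 24 of 24 genes were measured, with a median of 0.14 and 1 gene (4.17%) past 2-fold on each side, against the same background. These were Thoc5, at 8.62 FPKM in Cdk14-sh against 1.51 in Scramble control, and Smg9, at 1.96 against 5.30 in the same order. Syncrip, Esrp1, Srpk1, Srpk2, Clk1, Son, Srrm2, Ptbp2 and Ptprc are named for their function, after their values were seen.

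**Figure D5:**
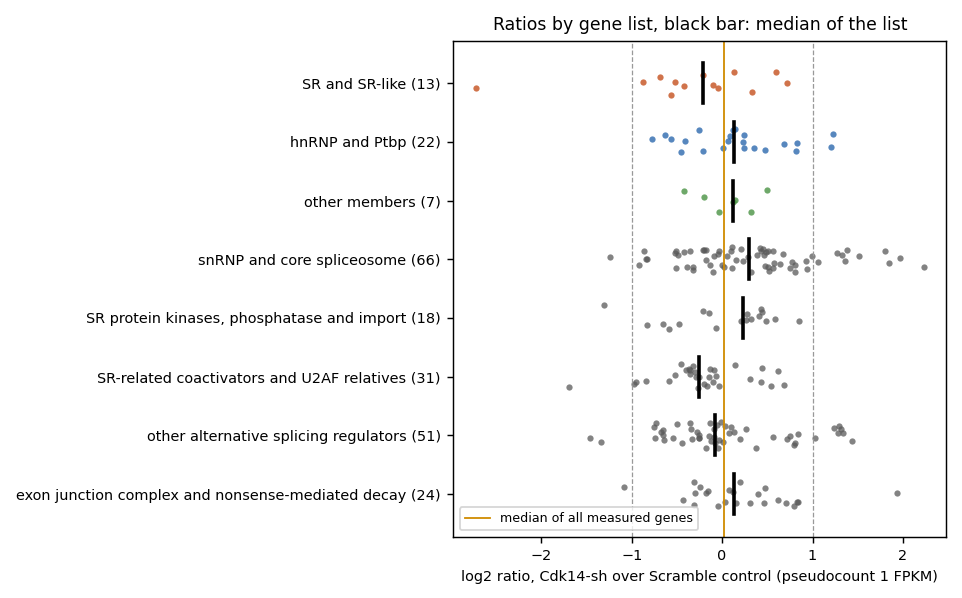
Log2 ratio of Cdk14-sh over Scramble control for each measured gene (points), by group of members and by list of other splicing genes, with the number of genes in brackets, black bars for the medians, an orange line for the median of all measured genes and dashed lines at 2-fold. The medians run from -0.25 for SR-related coactivators to 0.30 for the core spliceosome, and the median of all measured genes is 0.02.

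What the members share beyond their names was read from the annotation. A transcript subject to nonsense-mediated decay is annotated for 27 of 42 members (64.3%), for 11 of the 13 SR and SR-like genes and for 12 of the 22 hnRNP and Ptbp genes, against 23.4% of all measured genes. This share was not particular to the members. It was 67.7% for SR-related coactivators, 61.1% for genes that modify and import SR proteins and 49% for other splicing regulators. For the core spliceosome it was 30.3%, and for the exon junction complex and decay genes 29.2%. Srsf3, for example, has 2 transcripts subject to nonsense-mediated decay and 4 with a retained intron among 10. The exonic length behind an FPKM pools all transcripts of a gene. Its median was 1.61 times the longest coding transcript, against 1.32 times for all measured genes. For the same 5 lists, in the order above, it was 1.91, 1.85, 1.62, 1.53 and 1.30 times. A gene's FPKM therefore does not say how much of its RNA was productive.

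The promoter windows of the members were rich in G and C. A window was found for 37 of 42 members, 51 windows in all, with a median GC content of 67.3%, against 61.3% for 10447 windows of the measured genes with an entry and 52.7% for all 32851 windows. The GC box GGGCGG, on either strand, was in 84.3% of the members' windows, 63.6% of those of measured genes and 35.7% of all. The CCAAT box was in 52.9%, 36.9% and 37.4% in the same order. The TATA box TATAAA was in 9.80%, 6.95% and 13.6%. Of the other motifs searched on both strands, the ETS site CCGGAAGT was in 11.8%, 7.92% and 3.89% of windows, again of members, measured genes and all. The E box CACGTG was in 13.7%, 10.1% and 7.15%, the YY1 site AAGATGGC in 3.92%, 4.59% and 2.75%, and the cAMP response element TGACGTCA in 1.96%, 3.09% and 1.79%. The palindromic NRF1 site was in 1.96%, 2.01% and 0.971%, and the ZBTB33 site in 1.96%, 1.01% and 0.466%. GC boxes and high GC content go together, and windows of 1 gene can overlap each other.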

How the data were processed

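The authors deposited 1 table of FPKM values, with a column for each library, and both columns matched a sample title. Bowtie 0.12.2, Subread 1.5.1 and featureCounts appear in the submitters' processing notes, as do GRCm38 and mm8, neither with a stated use. The strand setting and the handling of multiply mapped reads are not given in the sources used here. Every listed gene is above 0 in both libraries, so genes seen in 1 library alone enter no comparison.

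From these values, log2 ratios used a pseudocount of 1 FPKM and genes averaging 1 FPKM or more (12819 genes, of a symbol on several rows the one of highest mean). Fold values in the text are FPKM ratios without a pseudocount. Reads were recovered as FPKM times exonic length (GENCODE M21, GRCm38), with the smallest step taken as 0.5 reads. Library totals, read numbers and interval widths depend on that choice. The recovered reads were multiples of that step (tolerance 0.01 reads) for 79.1% of 15195 genes with a length and for 29 of 42 members. For the other 13 (Hnrnpul2, Hnrnpa1, Hnrnpm, Qk, U2af1, Hnrnpk, Hnrnpf, Rbfox2, Srsf3, Srsf7, Mbnl2, Tra2b and Hnrnpc) read numbers and intervals are approximate, as they are for Celf4, Rbm24 and Syncrip. Intervals are exact 95% Clopper-Pearson intervals with 2 reads taken as 1 fragment, cover counting error only, and compare these 2 libraries, not the conditions.

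The arithmetic was tested on simulated data. Python 3.11.15, numpy 2.4.6, pandas 2.3.3, scipy 1.17.1 and matplotlib 3.10.9 were used. Members and lists were chosen with earlier results of these data known. The named genes are Cdk14, the members (the 10 highest and 10 lowest ratios, the 5 of highest level and paralog sets in full) and up to 3 highest and 3 lowest genes of each list, beside those marked as named after their values were seen.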

Additional observations from a re-analysis of the deposited data

How the results depend on the processing

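No paired analysis was possible because each group holds 1 library. Of the 2 members at least 2-fold higher and the 1 at least 2-fold lower, the 4 other scalings, a pseudocount of 0.1 FPKM, no filter and summed rows of 1 symbol gave the same counts. A pseudocount of 5 FPKM and a limit of 4-fold each gave 0 higher and 1 lower, and a mean of at least 5 FPKM gave 1 higher and 0 lower. A limit of 1.5-fold gave 7 higher and 5 lower. Settings chosen after seeing the data gave 1 higher over the 29 members with fitting read numbers and 0 higher over the members that share no exonic base with another gene, with 1 lower in both. The median log2 ratio of 0.08 was between 0.01 and 0.08 under the scalings, pseudocounts and filters. It was -0.0414 over the 25 members sharing no exonic base, and the mean over all members was -0.0119, so the sign of the summary depends on these choices. The other scalings shifted all log2 ratios by 0.02 to 0.07 and turned the sign of Hnrnpl alone among the members. Low levels limit Srsf12, with 16 reads in Cdk14-sh, and Hnrnpul2, with 62 in Scramble control.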

Other observations

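Some members are neighbours in the genome, and neighbours differed in either direction. Hnrnpd and Hnrnpdl lie 54.6 kb apart on chromosome 5, with Hnrnpd at 11.4 FPKM in Cdk14-sh and 9.50 in Scramble control, and Hnrnpdl at 39.8 FPKM in Cdk14-sh and 61.9 in Scramble control. Hnrnpll and Srsf7 lie 138 kb apart on chromosome 17, with Hnrnpll 1.81-fold lower and Srsf7 1.07-fold lower. Hnrnpa0 and Hnrnpk lie 263 kb apart on chromosome 13, and Srsf10 and Hnrnpr 441 kb apart on chromosome 4, where both genes were lower in Cdk14-sh. These pairs were picked for lying within 1 Mb of each other, and no test was made.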
